A study of Mus musculus with 20 samples.

Results

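Histone deacetylases take acetyl groups off histones and other proteins and so oppose acetyltransferases such as p300, the enzyme encoded by Ep300 that acetylates H3K27. The chromatin of 9 mouse genes of this family, Hdac1, Hdac2, Hdac3, Hdac4, Hdac5, Hdac7, Hdac9, Hdac10 and Hdac11, was profiled in bone marrow progenitor cells. The genes were chosen by name, and a peak was counted at a gene when it touched the annotated gene body extended by 20 kb on either side. The 9 genes are part of 21911 protein-coding genes of the annotation, and their extended bodies, 1681 kb together, held 890 of the 591292 peaks in 12 deposited peak lists. On GRCm38 (mm10) the class I genes span chr4:129516104-129542713 (Hdac1), chr10:36974544-37001889 (Hdac2) and chr18:37935844-37955016 (Hdac3). The class II genes span chr1:91928779-92195699 (Hdac4), chr11:102194432-102230166 (Hdac5), chr15:97792664-97844502 (Hdac7), chr12:34047580-34917095 (Hdac9) and chr15:89123307-89128700 (Hdac10), and Hdac11 spans chr6:91156665-91174692. No other coding gene had an annotated start in the extended bodies of Hdac2, Hdac4, Hdac9 and Hdac11.

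Each list held the ChIP-Seq peaks of 1 mark, H3K27ac, H3K4me1 or H3K4me3, in 1 of 4 genotypes. All mice carried floxed Ep300 alleles (Ep300 fl/fl) on a C57BL/6 background, and all received poly(I:C) as young adults, which turns on the interferon-inducible Mx1-Cre where it is present. WT cells came from Ep300 fl/fl mice without Cre, Ep300Δ/Δ cells from Mx1-Cre;Ep300 fl/fl mice, Tet2-/- cells from Ep300 fl/fl mice lacking Tet2 in the germ line, and Ep300Δ/ΔTet2-/- cells from Mx1-Cre;Ep300 fl/fl;Tet2-/- mice. Mx1-Cre is active in blood cells and also in other cells that respond to interferon, so the deletion was not limited to the progenitors. Lin- bone marrow cells, from which mature blood lineages had been depleted, were used at a labelled purity above 80%. Each precipitation took 5 µg of chromatin and 1 µg of antibody, and 10 ng of fly chromatin was added as a spike-in. TET2 oxidizes methylcytosine, and mice without it are used as a model of pre-leukemic hematopoiesis.

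H3K27ac marks active promoters and enhancers, H3K4me1 marks enhancers whether or not they are acetylated, and H3K4me3 marks promoters. Class I deacetylases are nuclear enzymes of corepressor complexes: HDAC1 and HDAC2 work in the SIN3, NuRD and CoREST complexes, and HDAC3 works with NCoR and SMRT. Class IIa deacetylases, HDAC4, HDAC5, HDAC7 and HDAC9, move between nucleus and cytoplasm and bind MEF2 transcription factors. HDAC10, of class IIb, deacetylates polyamines, and HDAC11 is the only member of class IV.

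The files hold 1 library for each genotype and mark, so the genotypes were compared without replicate error and without tests. The 8 libraries of H3 and H3K27me3 were not analysed here. Sequencing depth is not known from lists of peaks, and a shallower library can give fewer of them. A smaller share of cells carrying a mark and less of the mark in each cell cannot be told apart in these bulk samples. Peaks were ranked inside each list by the deposited fold over the H3 library, and a rank is given as the percentage of peaks in the same list with a lower fold. Intervals in parentheses after a share are exact Clopper-Pearson 95% intervals and cover counting error only. H3K27ac peaks numbered 29659 in WT, 22727 in Ep300Δ/Δ, 24539 in Tet2-/- and 18327 in Ep300Δ/ΔTet2-/- cells. Promoters of the 8 progenitor markers Kit, Cd34, Flt3, Gata2, Spi1, Mpo, Runx1 and Cebpa carried both H3K27ac and H3K4me3 in 8 of 8 genes in WT and Ep300Δ/Δ and in 6 of 8 in Tet2-/- and Ep300Δ/ΔTet2-/- cells. Among markers of mature lineages, Klrb1c had both marks in WT and Ep300Δ/ΔTet2-/- cells, and Cd3e, Cd4, Cd8a, Ms4a1 and Ly6g had both in no list. None of 4 marker genes of other tissues had both marks in any list.

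The acetylated stretches inside the class IIa genes carry much of what follows, and the strongest WT one outside exons in each gene is therefore shown. Each sequence is read from the plus strand of GRCm38 (mm10) and reaches 100 bases to either side of the summit of a WT H3K27ac peak that overlapped H3K4me1 and lay over 3000 bp from every annotated start, the definition of an active enhancer used here. All lie in introns. Capitals mark a match to the RUNX core TGTGGT.
Hdac4 chr1:92048814-92049014: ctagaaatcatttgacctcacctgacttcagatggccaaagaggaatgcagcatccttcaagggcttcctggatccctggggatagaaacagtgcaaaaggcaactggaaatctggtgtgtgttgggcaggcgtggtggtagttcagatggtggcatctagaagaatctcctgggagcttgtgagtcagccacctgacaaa
Hdac5 chr11:102208098-102208298: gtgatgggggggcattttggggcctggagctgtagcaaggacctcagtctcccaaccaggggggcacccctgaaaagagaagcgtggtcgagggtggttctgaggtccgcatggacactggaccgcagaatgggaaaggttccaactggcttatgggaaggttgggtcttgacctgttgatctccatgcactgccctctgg
Hdac7 chr15:97825466-97825666: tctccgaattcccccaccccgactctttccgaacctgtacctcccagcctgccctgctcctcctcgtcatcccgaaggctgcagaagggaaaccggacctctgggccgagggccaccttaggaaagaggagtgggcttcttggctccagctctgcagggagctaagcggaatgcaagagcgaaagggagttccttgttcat
Hdac9 chr12:34723006-34723206: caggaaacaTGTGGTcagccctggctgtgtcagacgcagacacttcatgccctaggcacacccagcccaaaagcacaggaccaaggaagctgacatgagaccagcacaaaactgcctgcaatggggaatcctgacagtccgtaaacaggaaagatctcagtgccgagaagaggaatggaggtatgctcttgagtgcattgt
Both strands were searched for the MEF2 consensus, for RUNX and for the ETS letters GGAAGT. The letters AGATAA stood for GATA factors. The Hdac9 sequence held 1 RUNX match, and the other sequences held no match to any of them. Among all 9505 WT active enhancers, windows of the same length held the ETS letters in 14.5%, the RUNX letters in 16.7%, the GATA letters in 7.09% and the MEF2 consensus in 1.03%. GC content was 50.2% in the Hdac4 sequence, 58.7% in that of Hdac5, 59.7% in that of Hdac7 and 52.7% in that of Hdac9.

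The first question was which deacetylase promoters carried H3K27ac and H3K4me3 and whether this changed with genotype. H3K4me3 lay within 3000 bp of an annotated start of all 9 genes in all 4 lists, against 61.9% of protein-coding genes in WT, 63.2% in Ep300Δ/Δ, 62.3% in Tet2-/- and 62.7% in Ep300Δ/ΔTet2-/- cells. H3K27ac was less even. It was present at 7 of 9 promoters in WT (47.3% of protein-coding genes), 6 in Ep300Δ/Δ (45.0%), 7 in Tet2-/- (46.4%) and 5 in Ep300Δ/ΔTet2-/- cells (43.1%). Hdac1, Hdac2, Hdac4, Hdac5 and Hdac10 had it in all 4 lists, as did 40.0% of protein-coding genes. Hdac3 lacked it in Ep300Δ/ΔTet2-/- cells only, and Hdac7 lacked it in both lists with Ep300 deleted. H3K4me1 was near a start of 9 of 9 genes in WT (62.0%), Ep300Δ/Δ (62.2%) and Tet2-/- (61.4%) and 8 of 9 in Ep300Δ/ΔTet2-/- cells (62.7%), where Hdac9 lacked it. Hdac9 and Hdac11 had H3K4me3 in all 4 lists, as did 60.1% of protein-coding genes, and H3K27ac in none, a state shared by 2465 genes, or 18.7% of the genes with H3K4me3 in all 4 lists.

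**Figure D1:**
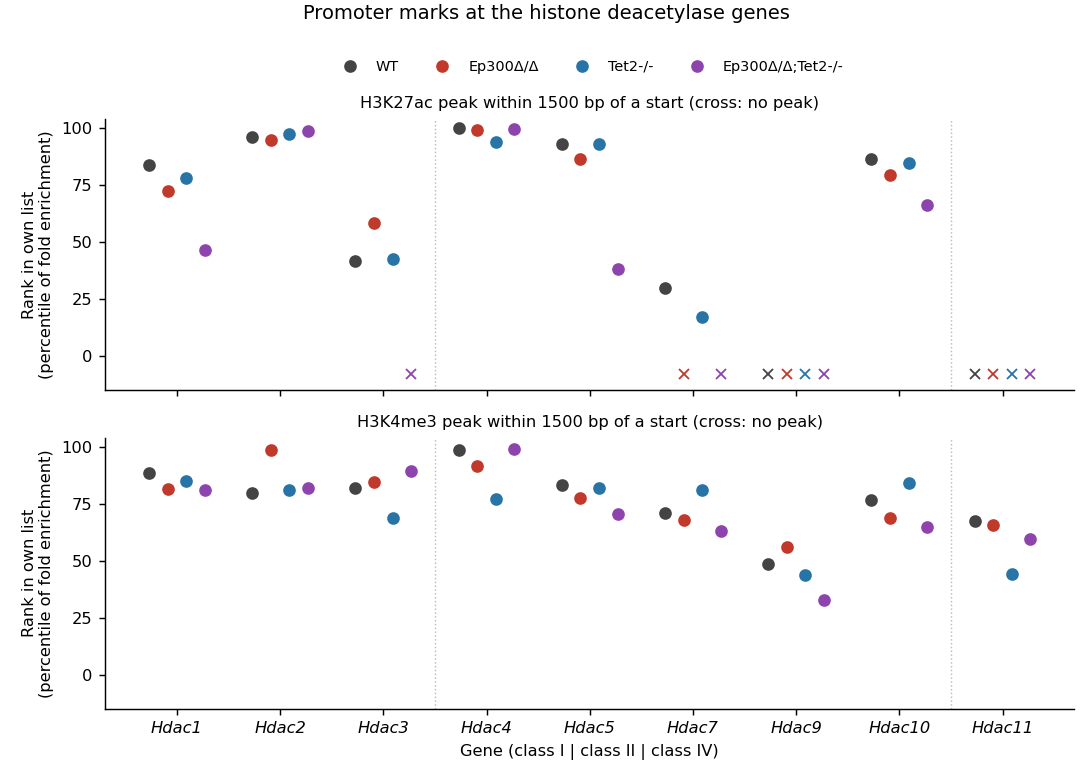
The rank of the strongest peak within 1500 bp of a start of each gene, as the percentage of peaks in the same list with a lower fold enrichment (y axis), for H3K27ac (upper panel) and H3K4me3 (lower panel), with 1 point for each genotype and a cross where there was no peak. Hdac4 and Hdac2 stay at or above 93.8 for H3K27ac in all 4 lists, Hdac5 is at 38.2 in Ep300Δ/ΔTet2-/- cells, and Hdac9 and Hdac11 have crosses in the upper panel and points in the lower one.

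Among the class I genes, Hdac2 had the highest-ranked promoter acetylation. Its strongest H3K27ac peak within 1500 bp of a start was the 1087th of 29659 in WT, 1134th of 22727 in Ep300Δ/Δ, 662nd of 24539 in Tet2-/- and 234th of 18327 in Ep300Δ/ΔTet2-/- cells by fold enrichment, and lay at chr10:36973994-36974551 over all lists. Its second promoter peak, downstream at chr10:36974697-36975418, was in the first 3 lists and absent in Ep300Δ/ΔTet2-/- cells. No distal H3K27ac peak was found in the Hdac2 window in any genotype. At Hdac1 acetylation lay on both sides of the 5′ start in all 4 lists. The downstream region, chr4:129541882-129542693, ranked at 83.7 in WT, 72.6 in Ep300Δ/Δ, 61.8 in Tet2-/- and 34.0 in Ep300Δ/ΔTet2-/- cells. The upstream region, chr4:129542809-129543371, ranked at 59.0, 42.9, 78.2 and 46.4, so the stronger side was downstream in the first pair of lists and upstream in the Tet2-/- lists. Hdac3 had the weakest promoter acetylation of class I, at chr18:37954439-37954962. It ranked at 41.5 in WT, 58.4 in Ep300Δ/Δ and 42.7 in Tet2-/- cells, and no peak was called in Ep300Δ/ΔTet2-/- cells. H3K4me3 at Hdac3 in those cells ranked at 89.3, higher than in WT (82.0), Ep300Δ/Δ (84.5) or Tet2-/- (68.9). This H3K4me3 is not particular to Hdac3, as it also covered chr18:37955111-37955318, whose center lay 68 bp from a start of Rell2.

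Hdac4, which represses MEF2 targets in muscle, heart and bone, had the strongest acetylated promoter of the 9 genes in every list except Tet2-/-, where Hdac2 ranked higher. The H3K27ac peak at chr1:92180523-92181314 in WT was the 21st of 29659 peaks by fold enrichment, and the promoter peak ranked 190th of 22727 in Ep300Δ/Δ, 1524th of 24539 in Tet2-/- and 96th of 18327 in Ep300Δ/ΔTet2-/- cells. It lay at an internal start and not at the far 5′ end of the annotated gene, where no H3K27ac or H3K4me3 peak was called in any list. The strongest H3K4me3 peak near a start of Hdac4 ranked at 98.6 in WT, 91.8 in Ep300Δ/Δ and 99.0 in Ep300Δ/ΔTet2-/- cells, and in Tet2-/- cells it was another peak, chr1:92178960-92179813, at 77.3. Hdac5, a signal-responsive relative of Hdac4, ranked at 93.1 in WT, 86.5 in Ep300Δ/Δ, 93.3 in Tet2-/- and 38.2 in Ep300Δ/ΔTet2-/- cells. The same stretch upstream of the 5′ start held this peak in all 4 lists. The strongest H3K4me3 peak ranked at 77.7 to 83.2 at this start in the first 3 lists, and in Ep300Δ/ΔTet2-/- cells it lay at an internal start, chr11:102217529-102219431, at 70.6. Hdac10 ranked at 86.3, 79.4, 84.8 and 66.4 in the same order. A further acetylated region counted at Hdac10, chr15:89122407-89123174, lay 95 bp from a start of Tubgcp6 and was present in all 4 lists.

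Hdac7, known for its role in lymphoid and endothelial cells, had different marks at different starts. Its strongest WT H3K4me3 peak at a start, chr15:97829706-97831115, ranked at 71.1, and no list had H3K27ac at those starts. The upstream start had an H3K27ac peak in WT, chr15:97844409-97845308, which was 20731st of 29659 by fold enrichment and was absent from the other 3 lists. H3K4me3 overlapped this region too in WT, Ep300Δ/Δ and Tet2-/- cells, but not in Ep300Δ/ΔTet2-/- cells. In Tet2-/- cells a peak was called at another internal start, chr15:97814514-97814829, with a rank of 17.1. Hdac9 had H3K4me3 at chr12:34907103-34907772 in WT, at an internal start, with ranks of 48.7 in WT, 56.1 in Ep300Δ/Δ, 43.9 in Tet2-/- and 32.7 in Ep300Δ/ΔTet2-/- cells. Hdac11 had 1 H3K4me3 peak in each list, chr6:91156513-91157459 in WT, ranked at 67.5, 65.6, 44.3 and 59.4. Hdac11 was without H3K27ac anywhere in its extended body in any list, as were 34.0% of protein-coding genes, or 8.46% of those with H3K4me3 in all 4 lists.

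The letters of these promoters can be set beside the marks. The sequences that follow are the 250 bases upstream of a start from the RefSeq promoter table (GRCm38), on the strand of the gene, with each CG in capitals. They show an acetylated promoter (Hdac4), a start of Hdac7 with H3K4me3 in all lists but no H3K27ac, the upstream start of Hdac7 with H3K27ac in WT alone, and an Hdac9 start without either mark. The table matched 6 of the 9 genes, and Hdac1, Hdac3 and Hdac10 were not in it.
Hdac4 chr1:92180342-92180591: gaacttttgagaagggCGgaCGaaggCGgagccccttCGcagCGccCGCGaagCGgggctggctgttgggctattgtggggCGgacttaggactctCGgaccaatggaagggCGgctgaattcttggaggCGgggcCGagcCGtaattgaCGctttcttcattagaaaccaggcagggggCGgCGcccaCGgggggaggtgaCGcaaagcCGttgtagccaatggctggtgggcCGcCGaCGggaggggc
Hdac7 chr15:97831768-97832017: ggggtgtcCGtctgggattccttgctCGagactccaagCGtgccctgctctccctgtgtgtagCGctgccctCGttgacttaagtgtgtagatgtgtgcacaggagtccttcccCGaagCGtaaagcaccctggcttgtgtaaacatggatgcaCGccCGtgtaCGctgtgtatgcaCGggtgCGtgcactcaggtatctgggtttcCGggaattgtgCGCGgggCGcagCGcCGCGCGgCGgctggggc
Hdac7 chr15:97844503-97844752: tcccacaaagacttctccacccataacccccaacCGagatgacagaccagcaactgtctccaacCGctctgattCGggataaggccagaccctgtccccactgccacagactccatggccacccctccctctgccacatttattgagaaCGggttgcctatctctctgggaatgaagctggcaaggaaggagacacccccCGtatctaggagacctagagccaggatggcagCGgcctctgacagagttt
Hdac9 chr12:34917096-34917345: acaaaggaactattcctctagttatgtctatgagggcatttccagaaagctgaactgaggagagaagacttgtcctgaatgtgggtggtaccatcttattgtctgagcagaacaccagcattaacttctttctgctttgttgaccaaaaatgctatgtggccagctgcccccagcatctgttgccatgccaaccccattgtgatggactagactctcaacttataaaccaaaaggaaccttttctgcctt
The Hdac4 stretch held 23 CG and the middle Hdac7 stretch 21, more than 86.7% and 83.7% of the 32851 promoters in the table. The upstream Hdac7 stretch held 6, the median of the table, and the Hdac9 stretch held 0, while 92.1% of promoters held at least 1. The Hdac11 promoter, with H3K4me3 in all lists and no H3K27ac, held 17 CG, so a CG-rich start occurred with and without H3K27ac among these genes.

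Acetylation away from promoters was compared between class I and class II genes. In WT cells 26 of the 53 H3K27ac peaks at the 9 genes were distal, that is, over 3000 bp from every annotated start. A distal peak was present at 6 genes in WT (21.8% of protein-coding genes had one), 5 in Ep300Δ/Δ (14.4%), 4 in Tet2-/- (19.2%) and 2 in Ep300Δ/ΔTet2-/- cells (13.2%). Distal peaks made up 40.0% (19.1 to 63.9) of 20 WT peaks at class I genes and 54.5% (36.4 to 71.9) of 33 at class II genes, against 36.5% of the whole WT list, and these intervals overlap. Per length the order was the other way, with 4.14 distal WT peaks per 100 kb in class I and 1.26 in class II, or 3.27 without Hdac9. The placement of the distal peaks was also counted. Of 8 WT distal regions at class I genes only 1, in an intron of Hdac1, had the deacetylase as its nearest coding gene. Of 17 at class II genes, 16 did and 15 lay inside the gene. The 5 distal regions in the Hdac3 window were all in introns of Diaph1, an actin regulator next to it. With only peaks nearest to a start of the deacetylase, the distal share was 14.3% (0.361 to 57.9) of 7 peaks in class I and 77.3% (54.6 to 92.2) of 22 in class II. With only peaks of −log10 q of at least 5, it was 33.3% (11.8 to 61.6) in class I and 37.5% (18.8 to 59.4) in class II. Class II windows summed to 1429 kb, of which Hdac9 took 910 kb, and class I windows to 193 kb.

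**Figure D2:**
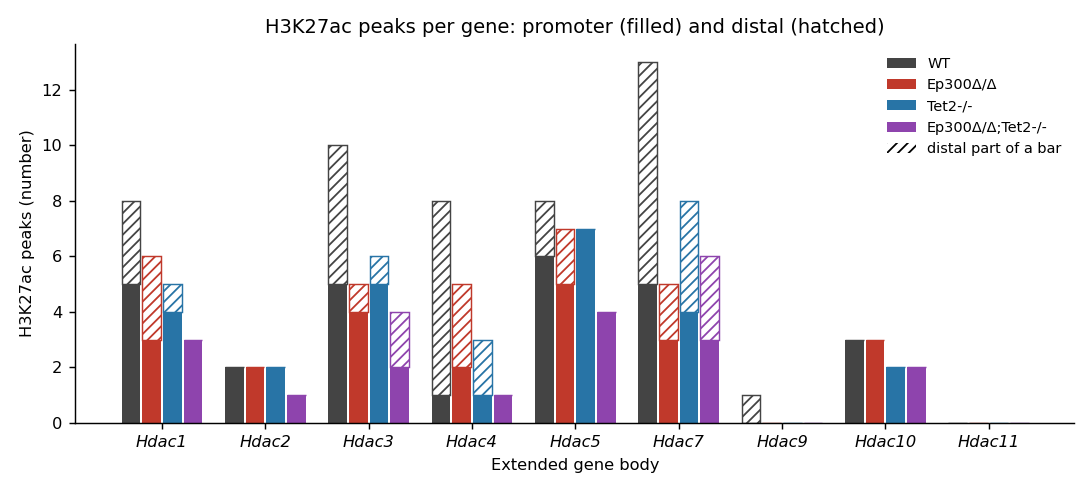
Number of H3K27ac peaks (y axis) in the extended body of each gene (x axis) in the 4 genotypes, with peaks at any promoter filled and distal peaks hatched. Hdac7 has the most in WT with 13, Hdac4 goes from 8 in WT to 1 in Ep300Δ/ΔTet2-/- cells, and Hdac11 has 0 in all.

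H3K27ac peaks at Hdac4 numbered 8 in WT, 5 in Ep300Δ/Δ, 3 in Tet2-/- and 1 in Ep300Δ/ΔTet2-/- cells, and the 7, 3, 2 and 0 distal ones account for most of the change. All 7 WT distal regions lay inside Hdac4. The region at chr1:92048680-92049974, which holds the Hdac4 sequence, was the most widely shared, with ranks of 49.2 in WT, 60.7 in Ep300Δ/Δ and 24.7 in Tet2-/- cells and no peak in Ep300Δ/ΔTet2-/- cells. A region over an exon, chr1:91984248-91984653, ranked at 49.9 in WT and 56.3 in Tet2-/- cells and was absent in both lists with Ep300 deleted. A region at chr1:92051700-92052316 was in WT and Ep300Δ/Δ cells, at ranks of 5.55 and 23.0. The remaining 4 were in WT alone. H3K4me1 still covered all 7 regions in Ep300Δ/ΔTet2-/- cells. Of the distal H3K4me1 peaks at Hdac4, H3K27ac overlapped 6 of 35 in WT, 2 of 29 in Ep300Δ/Δ, 2 of 30 in Tet2-/- and 0 of 29 in Ep300Δ/ΔTet2-/- cells, and 0 of 29 allows a share of up to 11.9%. Over the genome these shares were 13.9%, 8.55%, 9.97% and 6.86%, all inside the intervals at Hdac4.

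**Figure D3:**
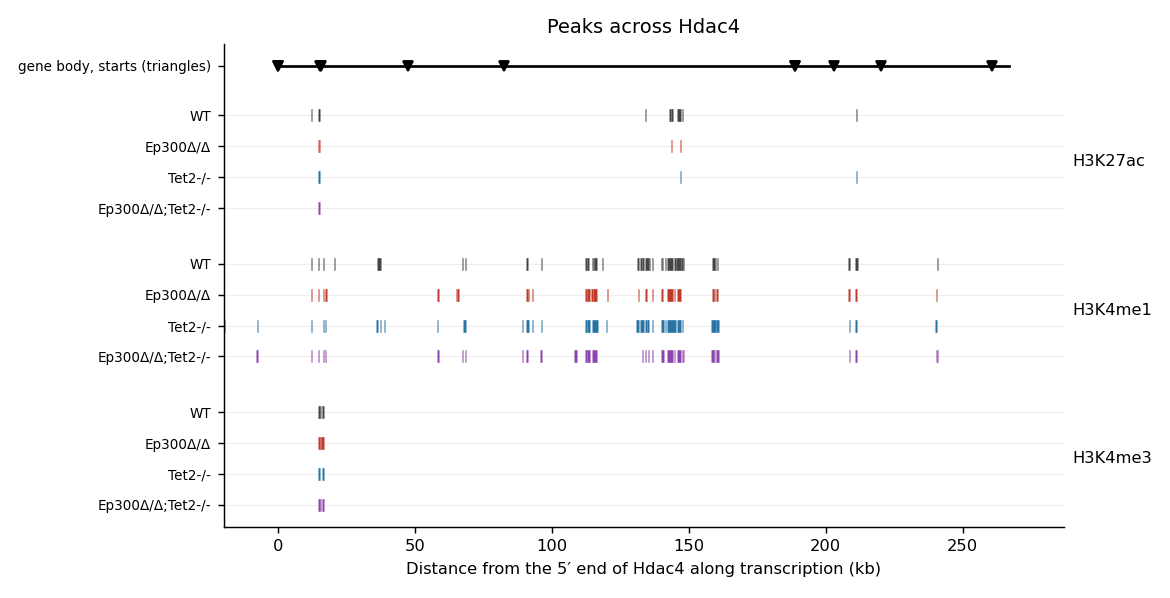
Peaks of the 3 marks across Hdac4 and 20 kb on either side in the 4 genotypes, against distance from the annotated 5′ end along transcription in kb, with annotated starts as triangles. The promoter peak near 15 kb is in every H3K27ac and H3K4me3 row, whereas the distal H3K27ac peaks, 7 in WT, are 0 in Ep300Δ/ΔTet2-/- cells.

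At Hdac7, the H3K27ac peaks numbered 13 in WT, 5 in Ep300Δ/Δ, 8 in Tet2-/- and 6 in Ep300Δ/ΔTet2-/- cells, of which 8, 2, 4 and 3 were distal. Both intronic regions present in all 4 lists also carried H3K4me1 and H3K4me3 in all 4. The first, chr15:97820542-97822052, ranked at 60.7 in WT, 66.2 in Ep300Δ/Δ, 24.6 in Tet2-/- and 64.1 in Ep300Δ/ΔTet2-/- cells. The second, chr15:97824803-97826191, which holds the Hdac7 sequence, ranked at 64.1, 33.9, 35.6 and 46.3. An intergenic region upstream of the gene, chr15:97849253-97849821, was called in every list except Ep300Δ/Δ. The other distal regions, 3 in introns of Hdac7 and 1 in an intron of its neighbor Slc48a1, were in WT alone, with ranks from 1.93 to 20.1.

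**Figure D4:**
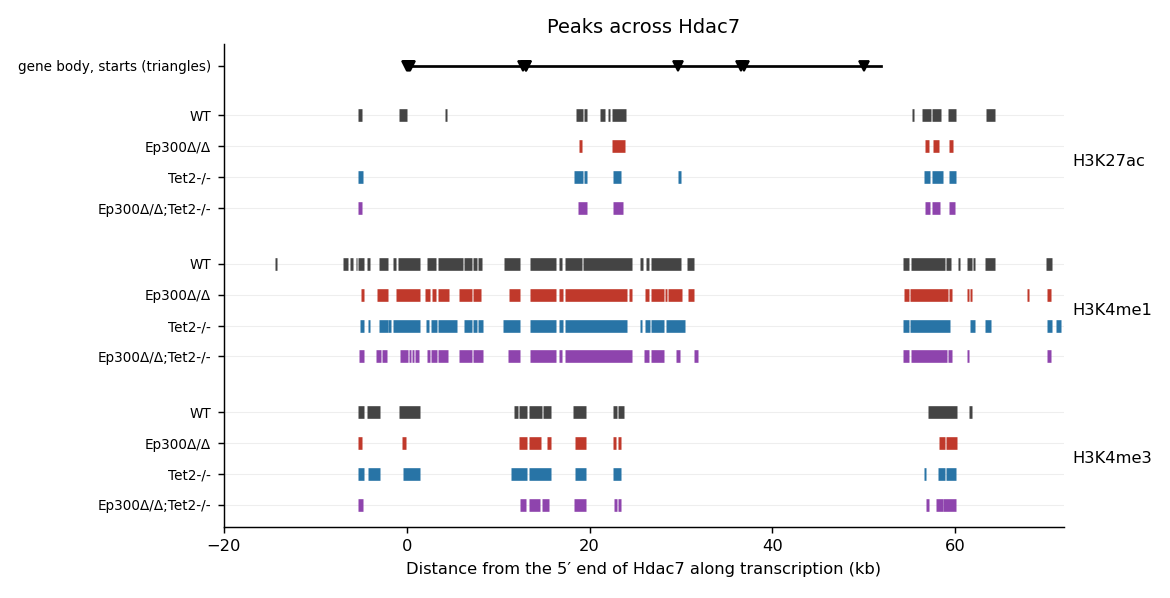
Peaks of the 3 marks across Hdac7 and 20 kb on either side in the 4 genotypes, against distance from the annotated 5′ end along transcription in kb, with annotated starts as triangles. A pair of intronic H3K27ac regions, ranked at 60.7 and 64.1 in WT, recur in all 4 genotypes, and the start cluster between them and the 5′ end has H3K4me3 but no H3K27ac.

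Hdac5 had 2 distal H3K27ac peaks in WT, 2 in Ep300Δ/Δ, 0 in Tet2-/- and 0 in Ep300Δ/ΔTet2-/- cells, all in introns. The strongest WT one, chr11:102207748-102208393, ranked at 64.4 in WT and 39.6 in Ep300Δ/Δ cells, and H3K4me1 covered it in all 4 lists. The equal counts were not the same regions. The other WT region, chr11:102209299-102209808, was in WT alone, and the other Ep300Δ/Δ region, chr11:102208512-102208803, ranked at 45.5 and was in Ep300Δ/Δ cells alone. Hdac9 had a single H3K27ac peak, chr12:34722920-34723248, in WT alone, ranked at 26.2, and this intron kept H3K4me1 in all 4 lists and had H3K4me3 in both Tet2-/- lists. Hdac1 had 3, 3, 1 and 0 distal peaks in WT, Ep300Δ/Δ, Tet2-/- and Ep300Δ/ΔTet2-/- cells. At Hdac1 the neighbor Lck, a kinase of T cells, had an acetylated promoter at chr4:129556583-129557244 in all 4 lists, with ranks from 37.2 to 59.2, and this region is counted in the Hdac1 window. Whether mature T cells contributed to it was not tested, and Cd3e, Cd4 and Cd8a had no promoter with both marks in any list, while Cd4 had 1 active enhancer in every list except Ep300Δ/ΔTet2-/-.

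Of 27 distal regions merged over the 4 lists, 25 were present in WT and 14 in WT alone, 10 at class II and 4 at class I genes. The WT ranks of these 14 ran from 1.93 to 70.2 with a median of 19.9. H3K4me1 overlapped 12 of them in WT and 13 in Ep300Δ/ΔTet2-/- cells, so most kept the methylation where the acetylation was not called. Across all 27 regions, 59.3% (38.8 to 77.6) were in a single list and 11.1% (2.35 to 29.2) in all 4, against 55.6% and 14.4% of all distal regions of the genome.

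The second question was how much H3K27ac at these genes disappeared when Ep300 was deleted in WT and in Tet2-/- cells. For each pair the lists were merged, and a region of the first list without an overlapping peak in the second was counted as lost. From WT to Ep300Δ/Δ, 26 of 53 regions at the 9 genes were lost, 49.1% (35.1 to 63.2), against 39.7% of all regions. Distal regions were lost in 18 of 26 cases, 69.2% (48.2 to 85.7), against 62.5%, and promoter regions in 8 of 27, 29.6% (13.8 to 50.2), against 26.5%. These shares lay near those of the genome, whose values fall inside every interval. Class I lost 5 of 8 distal regions, 62.5% (24.5 to 91.5), and class II 13 of 18, 72.2% (46.5 to 90.3), and the intervals overlap widely.

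From Tet2-/- to Ep300Δ/ΔTet2-/- cells, 12 of 32 regions were lost, 37.5% (21.1 to 56.3), against 37.8% of all regions. The distal count was 3 of 7, 42.9% (9.90 to 81.6), against 61.9%, and the promoter count 9 of 25, 36.0% with an upper bound of 57.5%, against 26.8%. Tet2-/- cells held 7 of these distal regions before the deletion, against 26 in WT. From WT to Tet2-/- cells, 24 of 53 regions were lost, 45.3% (31.6 to 59.6), against 35.6%, with 18 of 26 distal ones, 69.2% (48.2 to 85.7), against 55.3%. From Ep300Δ/Δ to Ep300Δ/ΔTet2-/- cells, 14 of 32 regions were lost, 43.8% (26.4 to 62.3), against 31.2%, with 8 of 11 distal ones, 72.7% (39.0 to 94.0), against 51.6%. The comparisons share lists, so these losses are not independent of each other.

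**Figure D5:**
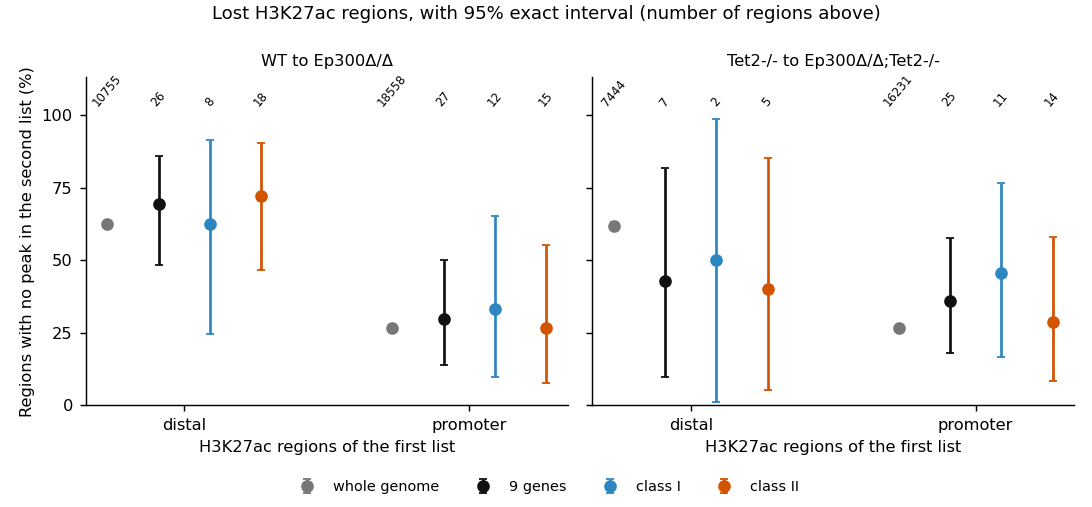
Share of H3K27ac regions of the first list with no peak in the second (y axis, %), for distal and promoter regions, in all regions of the genome (gray), the 9 genes (black), class I (blue) and class II genes (orange), with exact 95% intervals and the number of regions above. The distal share at the 9 genes is 69.2% from WT to Ep300Δ/Δ and 42.9% from Tet2-/- to Ep300Δ/ΔTet2-/- cells, and each interval contains the value of the genome.

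Gains were few. From WT to Ep300Δ/Δ, 4 of 31 regions were gained, 12.9% (3.63 to 29.8), against 12.8% of all regions, and from Tet2-/- to Ep300Δ/ΔTet2-/- cells 1 of 21, 4.76% (0.120 to 23.8), against 15.0%. At promoters 2 of 21 were gained in the first pair, against 9.73%, and 0 of 16 in the second, against 10.1%. The only gain from Tet2-/- to Ep300Δ/ΔTet2-/- cells was an active enhancer in an intron of Diaph1 in the Hdac3 window, chr18:37925991-37926317, ranked at 64.7. It was not new to these cells, as a WT peak ranked at 52.8 overlapped it, and only Ep300Δ/Δ and Tet2-/- cells had none there. From WT to Tet2-/- cells 4 of 33 were gained, 12.1% (3.40 to 28.2), against 20.3%. Of the distal regions in Tet2-/- cells 0 of 8 were gained, which allows a share of up to 36.9%, against 34.9% of distal regions over the genome.

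Loss was also counted by the strength of the peak. In WT cells none of the 8 peaks at the 9 genes in the strongest 25% of the list was lost in Ep300Δ/Δ cells, which allows a share of up to 36.9%, and 1.58% of such peaks were lost over the genome. In the next 25% and the one after it 3 of 14 and 13 of 17 were lost, or 21.4% (4.66 to 50.8) and 76.5% (50.1 to 93.2), against 23.9% and 56.6%. In the weakest 25% 10 of 14, 71.4% (41.9 to 91.6), were lost, against 74.9%. From Tet2-/- to Ep300Δ/ΔTet2-/- cells 0 of 7, 1 of 5, 4 of 7 and 7 of 14 were lost, from the strongest 25% to the weakest, against 1.97%, 21.1%, 53.3% and 69.6%. The weakest 25% at the 9 genes did not have the highest lost share in either pair, and every value of the genome lay inside the interval at the 9 genes. The strongest promoter regions of Hdac2, Hdac4, Hdac5 and Hdac10, all in the upper ranks of WT, were present in all 4 lists. Weaker promoter regions of Hdac2 (chr10:36974697-36975418) and Hdac5 (chr11:102229248-102229850) were absent in Ep300Δ/ΔTet2-/- cells, and 1 near Hdac10 (chr15:89130970-89131285) was in WT alone. The distal regions at the class II genes were mostly in the lower ranks.

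Of 28 regions at the 9 genes present in both WT and Tet2-/- cells, 2 were absent from both lists with Ep300 deleted, against 12.8% over the genome. One was the region over the Hdac4 exon. The other lay in the Hdac3 window at a start of Diaph1, chr18:37932671-37933376, ranked at 27.3 in WT and 28.3 in Tet2-/- cells. Of 18 regions present in both lists with Ep300 deleted, 0 were absent from WT and Tet2-/- cells, against 1.89%.

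Active enhancers at the 9 genes numbered 24 in WT, 11 in Ep300Δ/Δ, 8 in Tet2-/- and 5 in Ep300Δ/ΔTet2-/- cells, of 9505, 5093, 6548 and 3720 in the genome. Of the WT ones 16 of 24, 66.7% (44.7 to 84.4), were lost in Ep300Δ/Δ cells, against 63.1% of all. Of 7 merged ones in Tet2-/- cells 3 were lost with Ep300, against 61.7%. Of 5 merged ones in Ep300Δ/ΔTet2-/- cells 1 was gained, against 31.8%. The lost ones with the highest enrichment were both in Hdac4, at chr1:91984268-91984621 and chr1:92048702-92048970, and the remaining one lay in an intron in the Hdac1 window. The 4 retained ones were at Hdac7, which had 3, and in the Hdac3 window.

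H3K4me1 was compared in the same way. From WT to Ep300Δ/Δ cells 39 of 144 regions were lost, 27.1% with an upper bound of 35.1%, below the 36.7% of the genome, and from Tet2-/- to Ep300Δ/ΔTet2-/- cells 35 of 140, 25.0% (18.1 to 33.0), against 31.1%. These lost shares were under those of H3K27ac, 49.1% and 37.5%, but in the Tet2-/- background the order turned with lists of equal size (23.4% for H3K4me1 and 20.8% for H3K27ac), and with −log10 q of at least 5 the values were 35.2% and 34.5%. From WT to Ep300Δ/Δ cells the H3K4me1 lost share was 27.8% (18.3 to 39.1) in the gene body alone. It was 31.5% (22.2 to 42.0) with only peaks nearest to a start of the gene. Both intervals include the 36.7% of the genome, whereas in the other alternatives of the closing section the upper bound stayed below the genome. Gained H3K4me1 regions were 27 of 132, 20.5% (13.9 to 28.3), against 24.1%, and 18 of 123, 14.6% (8.91 to 22.1), against 23.4%. Merged over all genotypes, 79 of 178 H3K4me1 regions were in all 4 lists, 44.4%, against 34.4% over the genome. At the 18 distal H3K27ac regions lost from WT to Ep300Δ/Δ, H3K4me1 was present in 16 in Ep300Δ/Δ cells, 88.9% (65.3 to 98.6), against 76.4% over the genome. Among all distal H3K4me1 peaks at the 9 genes, H3K27ac overlapped 20 of 84 in WT, 23.8% (15.2 to 34.3), against 13.9% over the genome. Class I windows gave 7 of 19, with an interval of 16.3% to 61.6%. The Hdac3 window held 5 of these 7, and its distal WT H3K27ac regions all lay in introns of Diaph1. Class II windows gave 13 of 65, with an interval of 11.1% to 31.8%, which includes the 13.9% of the genome. At the 9 genes together, the share was 9.59% (3.94 to 18.8) in Ep300Δ/Δ cells, against 8.55%. It was 7.23% (2.70 to 15.1) in Tet2-/- and 5.97% (1.65 to 14.6) in Ep300Δ/ΔTet2-/- cells, against 9.97% and 6.86%. H3K4me3 was lost in 4 of 40 regions, 10.0% (2.79 to 23.7), against 15.4%, and in 9 of 42, 21.4% (10.3 to 36.8), against 13.3%.

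At Hdac9 the distal H3K4me1 peaks numbered 7 in WT, 7 in Ep300Δ/Δ, 16 in Tet2-/- and 11 in Ep300Δ/ΔTet2-/- cells. Of 16 distal regions at Hdac9 in the Tet2-/- list, 10 had no peak in WT, 62.5% (35.4 to 84.8), against 30.2% of all distal H3K4me1 regions. The equal counts in WT and Ep300Δ/Δ cells were not the same regions: 5 of 7 WT regions were lost in Ep300Δ/Δ cells, 71.4% (29.0 to 96.3), against 41.9%, and 5 of 7 Ep300Δ/Δ regions had no peak in WT, against 25.7%. Just 1 of 18 merged distal regions, 5.56%, was in all 4 lists, against 30.2% over the genome, and 4 were in Tet2-/- cells alone. At Hdac4 the distal counts were 35, 29, 30 and 29, with 14 of 39 regions in all 4 lists. Whether the Hdac9 pattern recurs in other mice was not tested.

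The partners of these enzymes, a list of 38 genes with Hdac6, Hdac8, the sirtuins, subunits of the NCoR/SMRT, SIN3, NuRD, CoREST and MiDAC complexes and the MEF2 factors, were counted in the same way. Of 37 found in the annotation, 37 had promoter H3K4me3 in every list (61.9% to 63.2% of protein-coding genes) and 35 had promoter H3K27ac in WT (47.3%), 34 in Ep300Δ/Δ (45.0%), 36 in Tet2-/- (46.4%) and 33 in Ep300Δ/ΔTet2-/- cells (43.1%). All 5 NCoR/SMRT genes and all 4 MEF2 genes had both marks in every list. Mta1 of NuRD had no promoter H3K27ac in any list, Hdac6 had it in Tet2-/- cells only, Sin3b lacked it in Ep300Δ/Δ cells only, and Sirt4 and Sirt5 lacked it in Ep300Δ/ΔTet2-/- cells only. Active enhancers at the 37 genes numbered 34, 23, 25 and 16 in the 4 genotypes, of 9505, 5093, 6548 and 3720 in the genome.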

How the data were processed

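H3K27ac, H3K4me1 and H3K4me3 were measured by ChIP-Seq in Lin- bone marrow cells of 4 genotypes, 1 library each, and 12 peak lists were used. The submitters' processing notes name cutadapt 1.15, BWA 0.7.13, Picard and MACS2 2.1.1.20160309, and the reads were aligned to mm10. The authors called narrow peaks of each library against its H3 library and kept those found in pseudo-replicates. They state a q-value threshold of 0.05, but the deposited lists hold peaks above it (36 to 4372 in a list, 0 to 11 of them at the 9 genes). The labels call the libraries single-end and the methods paired-end. The authors deposited for each peak a fold enrichment over H3, −log10 values for p and for q (p-value and q-value), a summit and a score, and the score was not used. The methods describe no scaling of the lists by the spike-in, so a fold is a ratio within 1 library.

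The genes and lists were chosen with earlier results of these data known. Gene models were GENCODE release M21 on GRCm38 (mm10), promoters were 3000 bp on either side of any start, and overlaps needed at least 1 bp. All 9 genes are named. The regions named are, at each gene, the strongest promoter and distal H3K27ac peaks, those lost or gained in both Ep300 deletions, and the 3 strongest active enhancers changed between Tet2-/- and Ep300Δ/ΔTet2-/- cells. Other regions were named after their values were seen. Of 38 partner genes, 37 were found in the annotation. A marker of mature lineages is not reported here. Each alternative in the closing section changed 1 choice: list size, overlap, distance, q threshold, promoter width, flank or assignment to genes. The overlap counts were checked on simulated data and against bedtools 2.31.1. Tables were handled with pandas 2.3.3 in Python 3.11.15, intervals with scipy 1.17.1 and numpy 2.4.6, sequences with pysam 0.24.0, and plots with matplotlib 3.10.9.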

Additional observations from a re-analysis of the deposited data

Results flagged for a closer look

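A pair of counts changed in opposite directions when Ep300 was deleted in WT and in Tet2-/- cells, and with 1 library each the difference was not tested. H3K4me1 peaks at Hdac5 numbered 20 in WT and 22 in Ep300Δ/Δ cells, 2 more, and went from 21 in Tet2-/- to 15 in Ep300Δ/ΔTet2-/- cells. H3K4me3 peaks at Hdac1 numbered 5 and 6, 1 more, in the first comparison and went from 6 to 4 in the second.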

How the results depend on the processing

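Of 64 recomputed values for 9 results, 52 moved by less than the counting interval and 12 by more or to 0, and none can be set against replicate error. No paired analysis was possible because each group has 1 library. With lists cut to equal size by q, the H3K27ac lost share at the 9 genes was 34.2% from WT to Ep300Δ/Δ (26.7% over the genome) and 20.8% from Tet2-/- to Ep300Δ/ΔTet2-/- cells (23.5%). The cut also takes out the weakest peaks of the longer list by q, and how much of the loss went with list size was not tested. With a peak within 500 bp counted as present, the gained share from WT to Ep300Δ/Δ was 0%, and the H3K4me1 lost shares were 15.3% and 16.4% (genome 25.1% and 21.3%). With −log10 q of at least 5 they were 37.4% and 35.2% (51.0% and 44.1%). In the gene body alone, and with only peaks nearest to a start of the gene, the gained share from Tet2-/- to Ep300Δ/ΔTet2-/- cells was 0%, and with 50 kb on each side it was 18.8% (15.0% over the genome). The WT distal share was 80.0% at class II in the gene body alone, and with nearest peaks 14.3% at class I and 77.3% at class II. The alternative with q under 0.05 was chosen after seeing the data. Depth is unknown, and a peak just under the threshold counts as absent.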
